A study of Mus musculus with 6 samples.

Results

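The autophagy machinery, the set of proteins that build an autophagosome and load it with cargo, was examined at the transcript level in inguinal white adipose tissue, which is fat under the skin of the groin. Its members were taken as every listed symbol that starts with Atg and a digit, together with named genes of initiation, lipid signalling, LC3 conjugation, cargo selection and transcriptional control. This gave 40 of the 24984 genes listed, and all 40 passed the filter on low counts that left 14065 genes for testing. Bulk RNA sequencing compared 3 wild-type libraries with 3 Mpst knockout libraries, all from mice fed a high-fat diet. Mpst encodes a sulfurtransferase that produces hydrogen sulfide. Age, sex, the length of the diet, the design of the knockout allele and whether replicates are separate animals were not stated in the labels used here, so a p-value here reflects spread among these libraries that could be technical.

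In autophagy, the ULK1 kinase complex responds to nutrient and energy signals and activates a lipid kinase complex around Beclin 1 and the kinase Vps34. A membrane then grows with lipid supplied by ATG9 and ATG2 proteins, and a ubiquitin-like conjugation system attaches LC3 and GABARAP proteins to it, to which cargo receptors such as p62 bind. The closed autophagosome fuses with lysosomes, whose genes are controlled together with many autophagy genes by TFEB and its relatives. In white fat, autophagy is known for its part in adipocyte differentiation, in the turnover of mitochondria and in lipid handling.

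Reads counted in genes ranged from 8054560 in knockout replicate 1 to 22458630 in knockout replicate 2. Mpst was counted 1358, 1394 and 1624 times in wild type but only 3, 10 and 9 times in knockout, so each library matched its label. Adipocyte markers were abundant in every library, with a summed level of 38934 to 69279 CPM (counts scaled to the normalised library size) over 10 genes. Skeletal muscle markers stood apart in wild-type replicate 2 (660 CPM over 6 genes) and knockout replicate 3 (1562 CPM), against 31.4 to 126 CPM in the other 4 libraries. Without these 2 libraries the whole table gave 0 genes higher and 1 lower. It gave 0 and 1 also without wild-type replicate 2 alone, 1 and 2 without knockout replicate 3, and 1 and 1 without knockout replicate 2. It gave 41 and 5 without knockout replicate 1, and 1434 and 1167 without wild-type replicate 3. Without wild-type replicate 1 it gave 538 and 263, against 669 and 373 with all 6 libraries.

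Most of the autophagy machinery stood at close levels in the genotypes. Of the 40 members, 1 was called higher with knockout (edgeR adjusted p under 0.05) and none lower, while 7.41% of all tested genes were called, 4.76% higher and 2.65% lower. DESeq2 called 1 member higher and 2 lower, against 5.39% of its 19026 tested genes higher and 4.61% lower. These 19026 are the genes with a p-value, and any left without an adjusted p count as not called. The member called with edgeR was Uvrag, a binding partner of Beclin 1. At an unadjusted p under 0.05 there were 5 members, 2 higher and 3 lower, or 12.5%, against 27.6% of all tested genes. The median log2 fold change (knockout minus wild type) was −0.02 over the members and 0.01 over all tested genes, with 19 members above 0 and 21 below. The size of the change, without its sign, had a median of 0.16 on the log2 scale over the members and 0.27 over all tested genes. A fitted change of over 1.5-fold was found for 1 member, Map1lc3a, or 2.50%, against 18.1% of tested genes. The libraries of the genotypes did not overlap in 9 members, 4 higher and 5 lower, or 22.5%, against 33.3% of all tested genes, 17.8% higher and 15.5% lower. The 95% interval of the difference lay within a 2-fold change either way for 38 of the 40 members (95%), and within 1.5-fold for 30. Of all 14065 tested genes, 10093 (71.8%) lay within 2-fold and 5007 within 1.5-fold, without matching for count level. Among the members, the exceptions to the 2-fold bound were Map1lc3a and Atg9b, a paralog of Atg9a with only 14 to 38 raw counts per library.

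**Figure D1:**
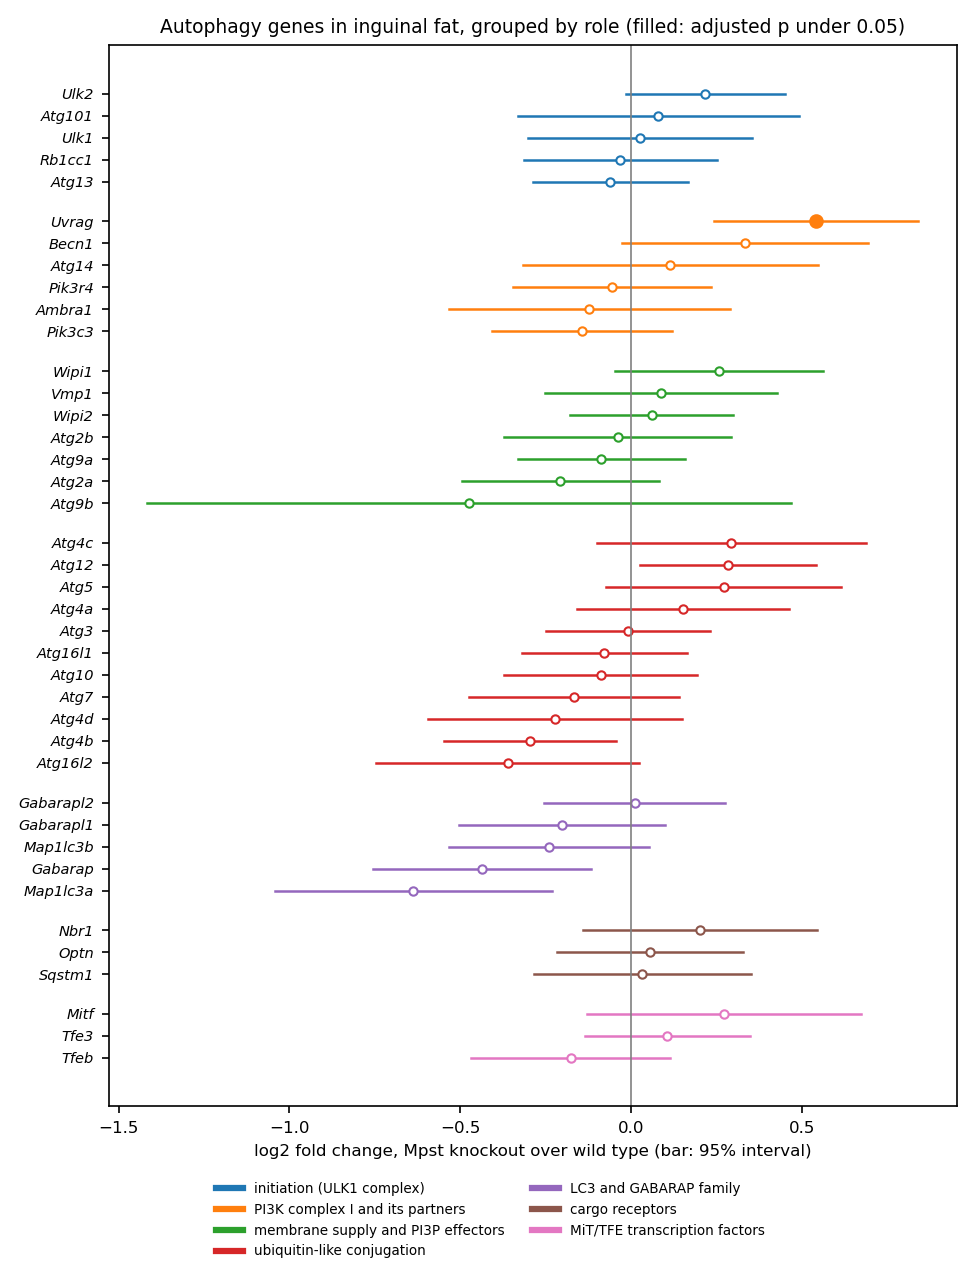
Log2 fold change of the knockout over wild type for the 40 autophagy genes, grouped by role, with 95% intervals from the quasi-likelihood fit (3 libraries a genotype). A filled point marks the single called gene, Uvrag. In the LC3 and GABARAP family 4 of 5 points lie below 0, and Atg9b, a gene of few counts, has the widest interval.

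The initiation complex, in which Ulk1 and Ulk2 encode the kinases and Rb1cc1 (FIP200), Atg13 and Atg101 their scaffold and partners, had no called member among 5. Ulk2 had the smallest p. It stood at 74.3, 75.2 and 76.8 CPM in wild-type replicates 1, 2 and 3 and at 87.2, 85.1 and 91.0 CPM in the knockout replicates, so that every knockout library lay above every wild-type library. The difference was small (log2 fold change 0.22, SE 0.10, edgeR adjusted p = 0.206). Atg13, chosen after its values were seen, also had groups that did not overlap, with each knockout library lower, yet the means were 59.8 ± 0.97 and 57.3 ± 0.90 CPM (SD, n = 3), a log2 fold change of −0.06 (adjusted p = 0.738). All 5 intervals lay within a 2-fold change, and the log2 fold changes ran from −0.06 to 0.22.

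The lipid kinase group held the only called gene. Uvrag encodes a protein that joins Beclin 1 and the Vps34 kinase in a complex of endosomes and of autophagosome maturation. It stood at 29.5, 29.2 and 24.2 CPM across wild-type libraries and rose to 44.2, 36.9 and 39.7 CPM in the knockout libraries. Every knockout library lay above every wild-type library. Its mean was 27.6 ± 2.99 against 40.3 ± 3.71 CPM (SD, n = 3), a 1.46-fold rise (log2 fold change 0.54, SE 0.13, 95% interval 0.24 to 0.84, adjusted p = 0.0442). The call was marginal. It was lost with size factors by relative log expression (adjusted p = 0.0512) and without wild-type replicate 1, wild-type replicate 2, or any of the knockout replicates (adjusted p = 0.0623, 0.144, 0.149, 0.0997 and 0.123), in a range of 0.0184 to 0.310 over 13 alternatives. It was also lost without the 2 libraries highest in muscle transcripts (adjusted p = 0.310), where the log2 fold change was 0.59. Its log2 fold change stayed between 0.46 and 0.60 in all 13.

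Becn1, which encodes Beclin 1 itself and was chosen after its values were seen, stood at 43.9, 61.3 and 62.4 CPM in wild type against 71.1, 62.6 and 77.8 CPM in knockout. Its groups did not overlap, but only narrowly, since wild-type replicate 3 and knockout replicate 2 were nearly level, and the difference did not pass the test (log2 fold change 0.33, SE 0.16, 95% interval −0.03 to 0.69, adjusted p = 0.210). The catalytic subunit gene Pik3c3, its regulatory subunit gene Pik3r4, the targeting subunit gene Atg14 and the Beclin 1 regulator Ambra1 had groups that overlapped. The 6 log2 fold changes of this group ran from −0.14 to 0.54. Parts of Uvrag, Becn1 and Atg14 are shared with a neighbour on the opposite strand in GENCODE M21. The shared part is 17.6% of the exon bases of Uvrag (with Gm45187), 43.9% of those of Becn1 (with Cntd1) and 5.53% of those of Atg14 (with Gm49004). The library kit does not mark strand, so reads from such shared stretches cannot be assigned to one of the partners. Uvrag (ENSMUSG00000035354.9) lies on chromosome 7 from 98885021 to 99141141 on the minus strand of GRCm38, and Becn1 (ENSMUSG00000035086.13) on chromosome 11 from 101285952 to 101302286, also on the minus strand.

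Among the 7 genes of membrane supply and of proteins that read the lipid signal, none was called. Atg9a and Atg9b encode the lipid scramblase of autophagic vesicles, Atg2a and Atg2b lipid transfer proteins, Wipi1 and Wipi2 binders of phosphatidylinositol 3-phosphate, and Vmp1 a scramblase of the endoplasmic reticulum. Wipi1 had the smallest p, at 29.4, 33.9 and 26.6 CPM in wild type against 32.8, 35.3 and 39.1 CPM in knockout. Wild-type replicate 2 lay above knockout replicate 1, so the groups overlapped (log2 fold change 0.26, SE 0.13, adjusted p = 0.249). Atg9b was counted 20, 23 and 38 times in wild type against 15, 14 and 24 in knockout, and its interval of −1.42 to 0.47 allows a change of over 2-fold downwards. With one library left out at a time its log2 fold change moved from −0.84 to −0.13.

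The ubiquitin-like conjugation system holds 11 members, and none was called. Atg7 encodes the activating enzyme, Atg3 and Atg10 the conjugating enzymes, and Atg12, Atg5 and Atg16l1 the complex that directs LC3 to the membrane. Atg16l2 is a paralog of Atg16l1, and Atg4a to Atg4d encode the proteases that trim LC3 and release it again. Atg4b had the smallest p of the group. It stood at 50.4, 57.6 and 52.0 CPM in wild type against 41.5, 45.4 and 43.3 CPM in knockout, with each knockout library below each wild-type library (log2 fold change −0.30, SE 0.11, 95% interval −0.55 to −0.05, adjusted p = 0.126). Atg12, chosen after its values were seen, lay the other way, at 72.4, 77.8 and 67.2 CPM in wild type against 93.4, 88.7 and 82.8 CPM in knockout, again without overlap (0.28, SE 0.11, adjusted p = 0.147). Its conjugation partner Atg5 overlapped between groups (0.27, adjusted p = 0.279), and so did Atg7 (−0.17, adjusted p = 0.462). Atg16l2, a paralog of Atg16l1, did not overlap, at 12.8, 10.9 and 12.5 CPM in wild type against 8.23, 9.11 and 10.7 CPM in knockout, but wild-type replicate 2 and knockout replicate 3 were close (−0.36, SE 0.17, adjusted p = 0.204). The names of Atg5, Atg7 and Atg16l2 were also chosen after their values were seen. Over the group, 4 members were above 0 and 7 below, with a median log2 fold change of −0.08. Atg4a is uncertain, since 52.0% of the 75-base windows of its transcripts, the read length, also occur in transcripts of other genes, among them a pseudogene of Atg4a itself. The same limit holds to a lesser degree for Atg4d (15.4% of windows, shared with Kri1) and, among the genes of membrane supply, for Atg9a (33.1%).

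**Figure D2:**
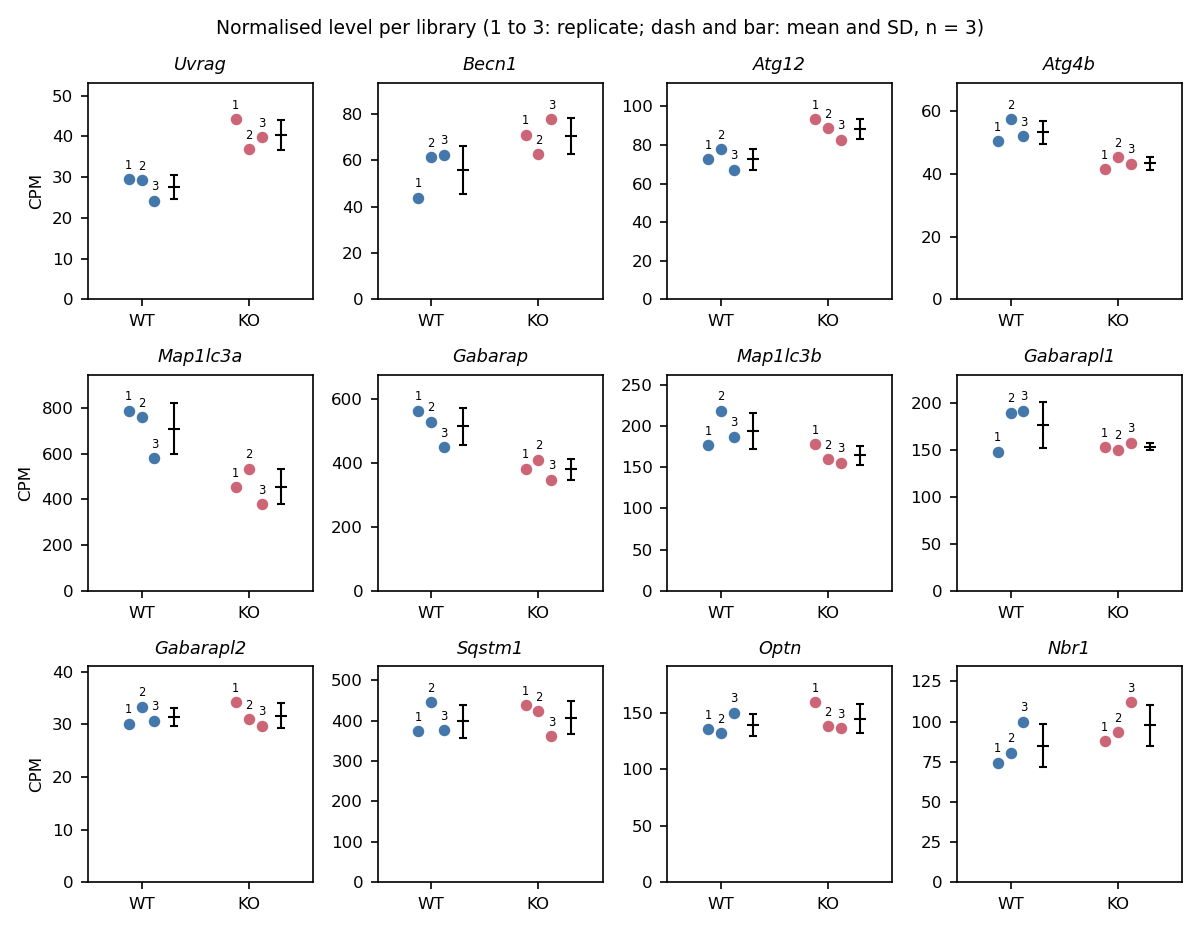
Normalised level (CPM) in each library for 12 autophagy genes, with axes from 0. Points are libraries numbered by replicate, and the dash and bar beside them give the mean and SD over 3. Uvrag, Becn1 and Atg12 are higher and Atg4b, Map1lc3a and Gabarap lower in every knockout library, while Map1lc3b, Gabarapl1, Gabarapl2 and the cargo receptors Sqstm1, Optn and Nbr1 overlap between genotypes.

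The LC3 and GABARAP proteins are the small ubiquitin-like molecules that coat the autophagosome. None of their 5 genes was called, yet the median log2 fold change of −0.24 was the lowest of the 7 role groups, and at an unadjusted p under 0.05 there were 2 of 5 lower and none higher, against 12.7% of all tested genes lower and 14.9% higher. Map1lc3a, which encodes LC3A, stood at 788, 758 and 580 CPM in wild type against 453, 535 and 378 CPM in knockout. All knockout libraries lay below all wild-type libraries, with wild-type replicate 3 and knockout replicate 2 nearest to each other. The means were 708 ± 113 and 455 ± 78.1 CPM (SD, n = 3), and the difference missed the threshold (log2 fold change −0.64, SE 0.18, 95% interval −1.04 to −0.23, adjusted p = 0.0636). Gabarap stood at 564, 529 and 450 CPM in wild type against 382, 410 and 347 CPM in knockout. Its libraries did not overlap either, and again wild-type replicate 3 was the lowest wild-type library and knockout replicate 2 the highest knockout library (514 ± 58.5 against 380 ± 31.5 CPM, −0.44, SE 0.14, 95% interval −0.76 to −0.12, adjusted p = 0.0876). Both genes were called lower with DESeq2 (adjusted p = 0.00861 for Map1lc3a and 0.0268 for Gabarap) and without wild-type replicate 3 (0.0120 and 0.0221). Over 13 alternatives the adjusted p ran from 0.00861 to 0.413 for Map1lc3a and from 0.0221 to 0.454 for Gabarap, and the log2 fold changes from −0.77 to −0.47 and from −0.52 to −0.36.

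The other 3 family members overlapped between genotypes. Map1lc3b, which encodes LC3B, the form most used as a marker of autophagosomes, stood at 177, 219 and 187 CPM in wild type against 178, 160 and 156 CPM in the knockouts (log2 fold change −0.24, SE 0.13, 95% interval −0.53 to 0.05, adjusted p = 0.261). Gabarapl1 was low in wild-type replicate 1, at 148 CPM against 190 and 192 in the other wild-type libraries, and stood at 153, 150 and 157 CPM in knockout (−0.20, SE 0.13, adjusted p = 0.360). Gabarapl2 was level, at 30.1, 33.3 and 30.6 CPM in wild type against 34.2, 31.0 and 29.8 CPM in knockout (0.01, 95% interval −0.25 to 0.28, adjusted p = 0.961). Its sign was negative in 6 of 13 alternatives, among them relative log expression, DESeq2 and limma-voom. Of these genes, 20.5% of the 75-base windows of Gabarapl1, 13.4% of those of Gabarapl2 and 5.08% of those of Map1lc3b also occur in transcripts of other genes, against none for Map1lc3a and Gabarap.

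Summed over the family, the level was 1706, 1729 and 1439 CPM in wild type against 1201, 1285 and 1069 CPM in knockout. The groups did not overlap, as in Map1lc3a and Gabarap, which made up most of the sum in every library. Adipocyte marker genes were lower in the same libraries. The 10 markers summed to 58728, 69279 and 61958 CPM in wild type against 44693, 47852 and 38934 CPM in knockout. Of the 10, 9 had a log2 fold change below 0. Called lower were 3 (30%), against 2.65% of all tested genes: Cfd, Retn and Lipe, whose names were chosen after their values were seen. Macrophage markers were higher, with 8 of 12 called (66.7%), against 4.76% of all tested genes called higher. They summed to 558 to 1062 CPM in wild type against 1855 to 2004 CPM in knockout. The part of these markers in the LC3 and GABARAP values was not tested. In bulk tissue, fewer cells of a type and less RNA per cell cannot be told apart.

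Within the family, shares of the 5 genes' counts do not depend on library scaling. Map1lc3a made up 46.2%, 43.9% and 40.3% of them in wild type against 37.8%, 41.6% and 35.4% in knockout, and Gabarap 33.1%, 30.6% and 31.3% against 31.8%, 31.9% and 32.5%. Gabarapl2 made up 1.76%, 1.93% and 2.13% in wild type against 2.85%, 2.41% and 2.78% in knockout, the only share whose groups did not overlap. By a two-sided exact permutation test of each of the 5 shares, p was 0.1 for Gabarapl2, the smallest that 3 against 3 allows, and 0.2 for Map1lc3a, or 0.375 for both when adjusted over the 5. In a single library the exact (Clopper-Pearson) 95% interval of the Map1lc3a share was at most as wide as in knockout replicate 1, 36.8% to 38.7%, which covers counting error only. The differences between replicates of a genotype were larger than that.

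**Figure D3:**
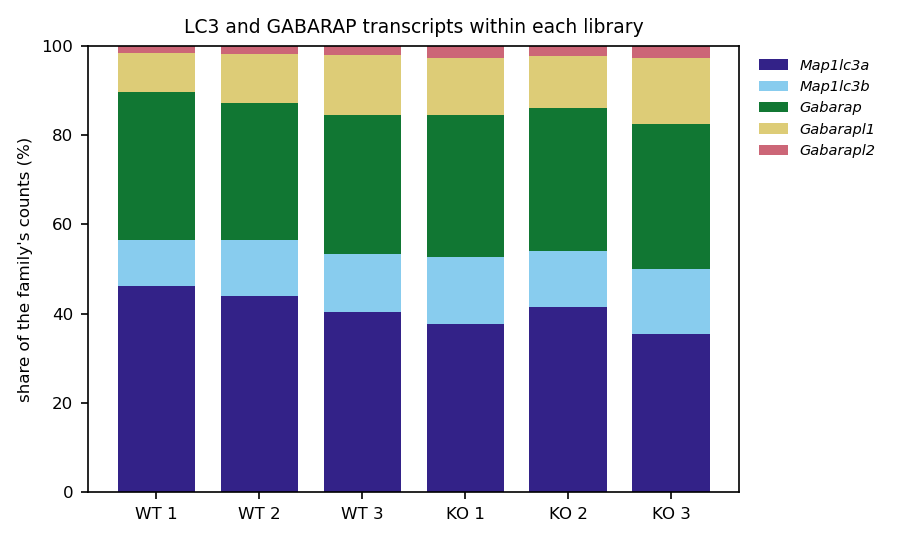
Share of the counts of the 5 LC3 and GABARAP genes, in percent, that each gene took in each of the 6 libraries. Map1lc3a takes 40.3% to 46.2% in the wild-type and 35.4% to 41.6% in the knockout libraries, so the groups overlap, and Gabarapl2 takes under 3% in all.

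Levels can be compared between genes per kilobase of the principal transcript. In wild type Map1lc3a had the highest of all members, at 637 ± 101 CPM per kilobase (SD, n = 3), before Gabarap (381 ± 43.3), the receptor gene Sqstm1 (195 ± 20.2), Gabarapl1 (97.0 ± 13.6) and Map1lc3b (76.7 ± 8.69). On this length the last 2 differed by less than the sum of their SDs. Uvrag stood at 5.36 ± 0.58 CPM per kilobase in wild type and Atg9b, the lowest, at 0.375 ± 0.070. In the knockout these 5 genes stood in the same order, at 410, 281, 200, 84.4 and 64.9 CPM per kilobase, with Atg101, at 68.2 ± 14.7, between the last 2. The order depends on the length used. Per kilobase of all annotated exon bases, Map1lc3b stood at 25.8 CPM in wild type, below Gabarapl1 (87.7), Atg101 (51.3) and Optn (37.1). Map1lc3a (ENSMUSG00000027602.9) lies on chromosome 2 from 155276297 to 155278073 and Gabarap (ENSMUSG00000018567.14) on chromosome 11 from 69991143 to 69994951, both on the plus strand of GRCm38.

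The cargo receptors link ubiquitinated material to LC3, and none of the 3 was called. Sqstm1, which encodes p62, stood at 373, 446 and 376 CPM in wild type against 438, 424 and 361 CPM in knockout. The values overlapped fully, with the highest in wild-type replicate 2 and the lowest in knockout replicate 3 (log2 fold change 0.03, SE 0.14, 95% interval −0.28 to 0.35, adjusted p = 0.903). Optn, which encodes optineurin, stood at 136, 132 and 150 CPM in wild type against 160, 138 and 137 CPM in knockout (0.06, 95% interval −0.22 to 0.33, adjusted p = 0.798). Nbr1 ranged from 74.3 to 99.8 CPM in wild type and from 87.6 to 112 CPM in knockout (0.20, SE 0.15, adjusted p = 0.418). Of the exon bases of Sqstm1, 17.3% are shared with Mrnip on the opposite strand.

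The MiT/TFE transcription factors, which switch on autophagy and lysosome genes when they enter the nucleus, were not called. Tfeb stood at 33.5, 31.1 and 33.1 CPM in wild type against 32.0, 29.7 and 25.1 CPM in knockout, with an overlap between wild-type replicate 2 and knockout replicate 1 (log2 fold change −0.18, SE 0.13, adjusted p = 0.406). Tfe3 stood at 57.9, 58.3 and 55.3 CPM against 63.0, 64.5 and 57.2 CPM (0.11, SE 0.11, adjusted p = 0.556). Mitf ranged from 10.5 to 12.9 CPM in wild type and from 11.9 to 17.0 CPM in knockout (0.27, SE 0.18, adjusted p = 0.353). Transcript levels do not report the nuclear entry of these proteins.

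These factors bind DNA at sites that hold the letters CACGTG, which read the same on both strands. In RefSeq promoters of GRCm38.p6, from 250 bases before to 50 after a start site, 34 of the 40 members had an entry and 4 of them (11.8%) held CACGTG in at least 1 promoter, against 11.4% of the tested genes with an entry (1259 of 11038). Of 14 genes with an entry in a lysosomal list named for the CLEAR element, 9 (64.3%) held it; that element is built on these letters, so the list's share follows from how it was defined and is no yardstick for the members. The members with these letters were Atg3, Atg5, Atg7 and Atg14, of which none was called, and in Atg14 they span the start site. The Atg7 and Atg14 matches lie inside the longer GENCODE M21 models of those genes. One window each is shown for Atg3 and Atg5, which belong to the same conjugation system, beside Gla, a called lysosomal gene, with CACGTG in capitals and 5′ to 3′ on the strand of the gene. A match is a description of the letters, not of binding. The windows lie at chr16:45158738-45158783 (plus), chr10:44268305-44268338 (plus) and chrX:134601174-134601219 (minus).
Atg3: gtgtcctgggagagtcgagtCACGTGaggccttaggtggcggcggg
Atg5: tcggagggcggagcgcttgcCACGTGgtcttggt
Gla: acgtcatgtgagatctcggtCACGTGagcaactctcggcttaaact

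Uvrag, the called member, and Gabarap have no CACGTG in that window, but for Gabarap most of the window lies inside its longer GENCODE M21 model. Map1lc3a had no promoter entry. The 250 bases before the start site of Uvrag, at chr7:99141145-99141394 (minus), are given because it is the called member, and 61.6% of them are G or C.
Uvrag: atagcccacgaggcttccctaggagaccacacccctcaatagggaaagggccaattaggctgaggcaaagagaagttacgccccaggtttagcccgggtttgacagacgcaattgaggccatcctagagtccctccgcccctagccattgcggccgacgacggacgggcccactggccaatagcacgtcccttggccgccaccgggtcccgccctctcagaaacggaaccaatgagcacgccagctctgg

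Genes that act around this machinery were taken from 5 further lists of 91 genes, 90 of them tested. Of these, 8 were called higher (8.89%) and none lower, against 4.76% of all tested genes higher and 2.65% lower. DESeq2 called 12 higher and 1 lower, against 5.39% and 4.61% of its 19026 tested genes. In the list of autophagosome fusion and maturation (15 tested, median log2 fold change −0.01) none was called with edgeR or DESeq2, 1 had an unadjusted p under 0.05, and 1 was called lower without wild-type replicate 3. Tecpr1, a tethering factor, had the smallest p, at 174, 142 and 154 CPM in wild type against 120, 130 and 111 CPM in knockout (−0.38, SE 0.13, adjusted p = 0.0961).

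Among 16 other receptors and adaptors (median 0.06), only Retreg1 was called, a receptor for turnover of the endoplasmic reticulum. It rose from 2.39, 2.13 and 1.997 CPM in wild type to 5.84, 4.49 and 5.14 CPM in knockout, a log2 fold change of 1.24 (SE 0.24, adjusted p = 0.0249) on 35 to 121 raw counts per library. The groups lay well apart in this gene of low level. At an unadjusted edgeR p under 0.05 the list held 3 genes higher and 3 lower (37.5%), against 27.6% of all tested genes. Beside Retreg1, the higher ones were Ncoa4 (log2 fold change 0.98) and Fundc1 (0.27). The lower ones, all of higher level than Retreg1, were Fkbp8 (−0.38), Tex264 (−0.36) and Sec62 (−0.33). The names beside Retreg1 were chosen after their values were seen. Among 10 other core genes (median 0.25), Trp53inp1, a p53 target that binds LC3, rose from 23.6, 16.2 and 18.7 CPM to 31.5, 32.6 and 36.0 CPM (0.78, SE 0.16, adjusted p = 0.0286). Nrbf2, a subunit of the Vps34 complex with Atg14, did not pass (0.78, SE 0.23, adjusted p = 0.0717), although its groups did not overlap. DESeq2 called it (adjusted p = 0.0253), as did edgeR once wild-type replicate 3 was left out (0.0353), and the 13 alternatives spanned 0.0253 to 0.313. Its name was chosen after its values were seen.

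Of 29 genes of nutrient sensing upstream (median 0.08), 3 were called higher (10.3%) and none lower, against 4.76% of all tested genes higher and 2.65% lower. Ddit4, an inhibitor of mTORC1 that is induced by stress, stood at 72.6, 54.5 and 37.2 CPM in wild type against 120, 125 and 92.4 CPM in knockout, with wild-type replicate 3 the lowest (log2 fold change 1.04, SE 0.23, adjusted p = 0.0351). Fnip2, a partner of folliculin at the lysosome, rose from 7.66, 6.26 and 7.61 to 10.02, 12.3 and 13.4 CPM (0.74, adjusted p = 0.0462). Sesn1, a sestrin that restrains mTORC1, was the third (0.42, adjusted p = 0.0478), named after its values were seen. This call also ended with relative log expression (adjusted p = 0.05265) and with no filter on low counts (0.0645). At an unadjusted edgeR p under 0.05 the list held 5 genes higher and 3 lower (27.6%), against 27.6% of all tested genes. Beside the 3 called genes, the higher ones were Rraga (0.37) and Sesn2 (0.79). The lower ones were Lamtor4 (−0.64), Lamtor2 (−0.44) and Lamtor5 (−0.35). These names beside the called genes were chosen after their values were seen.

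Of 20 lysosomal genes of the TFEB network, 3 were called higher (15%) and none lower. Over all tested genes, 4.76% were called higher and 2.65% lower. In the list, 17 genes were above 0, against 7099 of all 14065 tested genes, and the median log2 fold change was 0.23. Atp6v1a, a subunit of the proton pump that acidifies lysosomes, rose from 74.2, 81.6 and 68.9 CPM to 140, 122 and 115 CPM (0.74, SE 0.13, adjusted p = 0.0181). Lamp2, a lysosomal membrane protein, rose from 201, 155 and 150 CPM to 259, 298 and 262 CPM (0.69, SE 0.15, adjusted p = 0.0315). The third was Gla, alpha-galactosidase, chosen after its values were seen (0.81, adjusted p = 0.0397). Summed over the list, the level was 11088, 11111 and 7497 CPM in wild type against 12748, 13514 and 11018 CPM in knockout, so that knockout replicate 3 overlapped with wild-type replicates 1 and 2, and wild-type replicate 3 was lowest. Atp6v0d2, a proton pump subunit of macrophages and osteoclasts, chosen after its values were seen, stood at 9.87, 6.57 and 0.789 CPM in wild type against 39.1, 49.0 and 41.5 CPM in knockout (2.94, SE 0.72, adjusted p = 0.0620). It was called with DESeq2 (adjusted p = 0.0143), with limma-voom (0.0236) and with wild-type replicate 3 left out (0.000487), and the 13 alternatives spanned 0.000487 to 0.307. Its log2 fold change was 3.67 with limma-voom, 3.62 without wild-type replicate 1 and 2.40 without wild-type replicate 3. Wild-type replicate 3, the lowest in this gene, was also the lowest in the summed macrophage markers, at 558 CPM against 938 and 1062 in the other wild-type libraries. The part of these markers in the lysosomal values was not tested. All 8 calls of the 5 lists were lost without wild-type replicate 2 and without any one of the knockout replicates, and also without the 2 libraries highest in muscle transcripts. Without wild-type replicate 1 those of Fnip2, Sesn1 and Gla were lost, and without wild-type replicate 3 there were 17 higher and 4 lower.

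**Figure D4:**
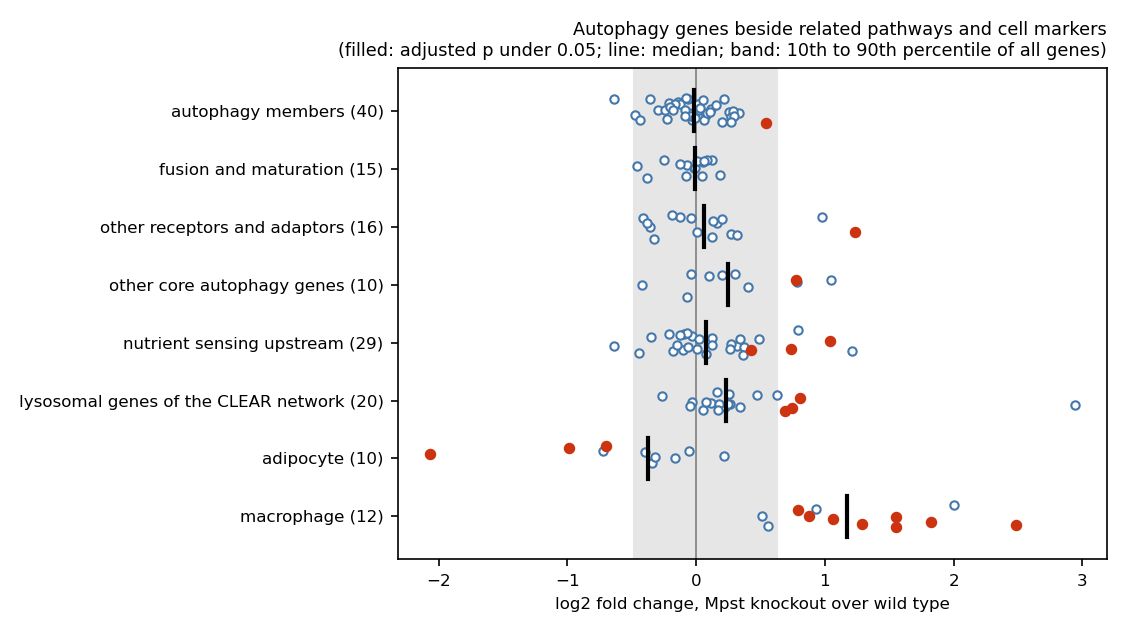
Log2 fold change of the knockout over wild type for the 40 autophagy genes, 5 lists of related genes and 2 lists of cell markers, with the number tested in brackets. Each point is a gene, filled where it was called, the black line is the list's median and the grey band spans the 10th to 90th percentile of all tested genes (−0.48 to 0.63). All but 1 of the autophagy genes lie inside the band, while most macrophage markers lie to its right.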

How the data were processed

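Total RNA of 6 inguinal white adipose tissue libraries was sequenced as 75-base single reads. The authors deposited raw counts per gene for each library. HISAT2 2.1.0, HTSeq 0.13.5 and DESeq2 1.26 and the build mm10 are named in the submitters' processing notes, and the annotation and counting settings are not stated in the sources used here. Summary lines that name no gene were left out.

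Counts were tested with edgeR 4.0.16 (R 4.3.3): TMM scaling, filterByExpr, a robust quasi-likelihood fit of knockout against wild type on all 6 libraries, and Benjamini-Hochberg adjustment over 14065 genes, called at 0.05. The SE is the log2 fold change over the square root of F. The script was tested on simulated data. Alternatives were DESeq2 1.42.0, limma-voom (limma 3.58.1), other scaling, no filter, a replicate block and leaving out libraries; 2 of the 13, upper-quartile scaling and leaving out the 2 libraries highest in muscle transcripts, were chosen after seeing the data. No pair of libraries of the same genotype agreed within sampling noise.

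The members and lists were chosen with earlier results of these data known. Genes were named by rule: Mpst, every called member, the member of smallest p in each role group, the LC3 and GABARAP, cargo receptor and MiT/TFE genes, and in each pathway list the 2 called genes of smallest p, or the 1 of smallest p. Other names are marked as chosen later. Positions, lengths and overlaps came from GENCODE M21 (GRCm38), and promoters from RefSeq (GRCm38.p6).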

Additional observations from a re-analysis of the deposited data

How the results depend on the processing

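The number of calls depended strongly on the tool and on single libraries. Over all genes, DESeq2 called 1026 higher and 877 lower of 19026 tested, and the split moved from 64.2% higher with edgeR to 53.9%. Leaving out 1 library at a time gave 0 to 1434 higher and 1 to 1167 lower, and leaving out the 2 libraries highest in muscle transcripts gave 0 and 1. Among the autophagy members, 0 were called higher with relative log expression size factors and 0 without those 2 libraries, and 0 to 1 with 1 library left out. The members called lower numbered 2 with DESeq2 and 0 to 2 with 1 library left out, the 2 being Map1lc3a and Gabarap without wild-type replicate 3. Their median log2 fold change was −0.073 without the muscle-rich pair. Of the 40 members, 12 changed sign in at least 1 of the 13 alternatives, up to 8 in 1 alternative (without wild-type replicate 3), and their log2 fold changes in the reported fit were at most 0.12 in size. Among them were Gabarapl2 (−0.0025 with relative log expression, −0.0076 with DESeq2, −0.0019 with limma-voom, −0.046 to 0.056 with 1 library left out), Sqstm1 (−0.021 to 0.12) and Optn (−0.019 to 0.12). The cause was not tested.

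With the replicate number as a block, 1387 genes were called higher and 1289 lower, and among the members 1 higher and 2 lower (Map1lc3a, adjusted p = 0.0114, and Gabarap, 0.0267). Over the 5 lists of related genes the block gave 12 higher and 8 lower, of which 2 lower were in the fusion and maturation list (Tecpr1, adjusted p = 0.0496). Same-numbered libraries correlated at 0.196, −0.0905 and 0.326 in their deviations from the group means. Knockout replicates 1 and 3 correlated best with the wild-type library of the same number, and knockout replicate 2 with wild-type replicate 1 (0.386). With so few libraries these values cannot decide whether same-numbered libraries were paired, and the labels used here do not state it.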
